A study of Danio rerio with 48 samples.

Results

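Keratin and desmosome genes were followed in zebrafish larval heads over 4 concentrations of the fluorinated surfactant perfluorooctane sulfonic acid (PFOS) and 2 ages. They were taken by gene name from the deposited count table: names that begin with krt or cyt1, and the genes of desmosomal cadherins, plakins, plakoglobins and plakophilins. This gave 32 of 25377 genes, all of which were among the 20021 genes tested. The 32 genes were sorted into 8 type I keratins, 3 type II keratins and 8 other genes with a keratin name. The rest were 2 desmosomal cadherins, 4 plakins and 7 armadillo plaque proteins. The 8 other keratin-named genes were not assigned a type, so further type I keratins may be among them. The name keratin and desmosome genes does not hold for krtcap2, which shares the keratin prefix but encodes a subunit of the oligosaccharyltransferase complex. It holds only loosely for krt222, a keratin-like gene. Genes under older names fell outside the rule, among them zgc:77517, zgc:110712, zgc:171226 and wu:fi04e12, which RefSeq lists as krt18b, krt99, krt98 and dspb.

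Keratins are the intermediate filament proteins of epithelial cells. A type I and a type II chain pair to form the filament, and desmosomes anchor filaments of neighbouring cells to each other. In a desmosome, cadherins (desmogleins and desmocollins) span the gap between cells, armadillo proteins (plakoglobin and plakophilins) bind the cadherin tails, and desmoplakin links them to keratin. The skin of a larval zebrafish has an outer periderm and a basal layer. Zebrafish krt4 and cyt1 are known from the periderm and the superficial epidermis, and krtt1c19e from basal keratinocytes.

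For each library polyA RNA was taken from 15 pooled heads, cut in front of the swim bladder. Mixed wild-type embryos were exposed from the dome-to-epiboly stage, with daily renewal, and collected at 4 or 5 days post fertilisation (dpf). The 8 groups were the vehicle, dimethyl sulfoxide (DMSO), and PFOS at 0.88, 1.57 or 2.8 µM at each age, with 6 pools a group, and all 8 groups carried 0.4% DMSO. The series asks about events behind the effect of such compounds on larval behaviour in light and dark. Nothing in the labels ties pools to clutches, so every p below rests on the spread between pools, which may be technical.

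Library totals ran from 14475198 to 28926584 counts. The scaling factors ran from 0.54 to 1.43. In 3 libraries the median correlation with libraries of the same age was below 0.95, namely replicate A of 2.8 µM at 4 dpf, replicate D of 1.57 µM at 5 dpf and replicate H of 0.88 µM at 5 dpf. All other libraries were at 0.959 or above. Counts of genes called were repeated without these 3 libraries.

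Keratins took a visible share of the reads of the head. The 32 genes held between 0.987 and 2.45% of a library's counts, with a median of 1.53%. On average krt4 alone took 0.624%, krt5 0.288% and krtt1c19e 0.163%. These shares are not divided by gene length, so they do not rank the genes by transcript number. All levels below are log2 CPM (counts scaled to a common library size, on the log2 scale), with a prior count of 2.

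Most of the keratins lay in tight groups on the GRCz11 assembly, at the coordinates in the deposited table. On chromosome 19, 7 keratins stood between 5324653 and 5380771, in the order krt1-19d, krtt1c19e, krt92, cyt1l, cyt1, krt17 and krt91. Chromosome 11 held krt93, krt94 and krt15 between 11454545 and 11518470. Chromosome 22 held krt222, krt97 and krt96 between 11717429 and 11779561, and chromosome 23 held krt5, krt8 and krt18 between 10173196 and 10351755. The type II keratin krt4 lay alone on chromosome 6 and krt1-c5 on chromosome 5. Both cadherin genes, dsc2l and dsg2.1, were neighbours on chromosome 20.

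The deposited counts of many of these genes were fractions. Of all values above 0 and under 10000 in the table, 85.9% were whole numbers within 0.1. In 10 of the 29 member genes with such values, fewer than 25% were whole, with none of the 4 such values of krt91, 8.33% for jupa, 12.5% for krt93 and krt94, 12.9% for krt97, 13.9% for krt92, 16.7% for krt96, 17% for cyt1l, 18.8% for krt17 and 20% for krt1-19d. In contrast 77.1% were whole for krt15 and 93.8% for krt18. Expected counts are fractions where reads are divided between genes of like sequence, so the values of single genes with few whole numbers are uncertain.

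Age was the contrast in which these genes moved. Between 4 and 5 dpf, averaged over the 4 concentrations, 14 of the 32 genes rose and krt5 fell, by edgeR's quasi-likelihood test at an adjusted p under 0.05 over all genes. That is 43.8% higher and 3.12% lower, beside 22.8% higher and 20.5% lower among all genes tested. The median log2 fold change of the 32 genes was 0.19, against 0.00 for all genes. Without the 3 libraries of low correlation, 13 rose and 3 fell, and the shares of all genes in that refit are not given here. In bulk tissue, more RNA per cell and more cells of a type cannot be told apart, here and in all results that follow.

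**Figure D1:**
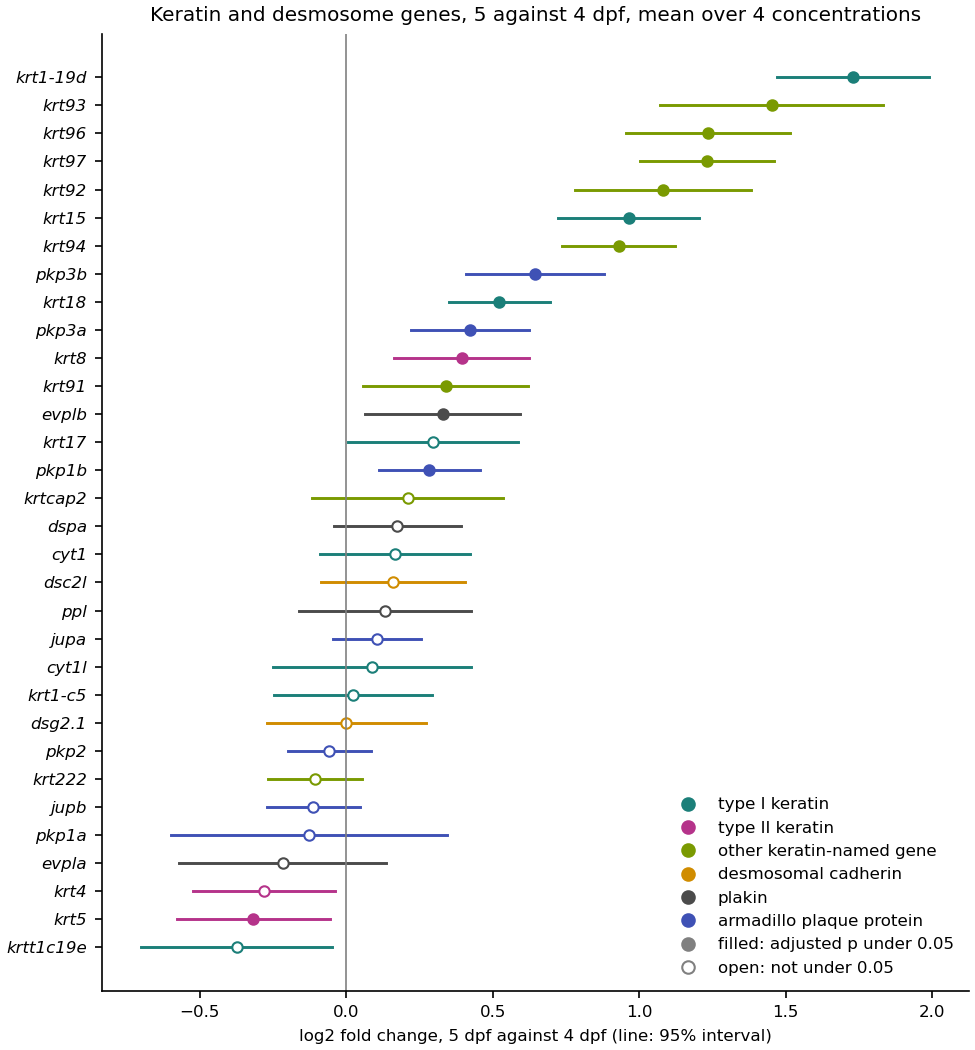
Log2 fold change between 5 and 4 dpf, averaged over 4 concentrations, for each of the 32 genes, with the 95% interval as a line and colour by role. Filled points passed an adjusted p of 0.05, and 14 of the 15 lie above 0, led by krt1-19d at 1.73.

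Among the 8 genes sorted as type I keratins, krt1-19d, krt15 and krt18 rose, and the other 5 did not pass. Keratin-named genes without an assigned type follow below. The level of krt1-19d in the 24 pools at 4 dpf was 6.15 at the lowest, 6.67 at the median and 7.60 at the highest, and at 5 dpf 7.53, 8.36 and 9.19. All but 1 of the 24 older pools lay above the highest younger pool (23 of 24). The log2 fold change was 1.73 ± 0.13 (SE, 3.32-fold, adjusted p = 3.23e-15).

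In krt15 the median rose from 6.68 (6.20 to 7.49) at 4 dpf to 7.77 (7.21 to 8.74) at 5 dpf, a log2 fold change of 0.96 ± 0.12 (SE, adjusted p = 5.2e-09). Of the 24 older pools, 16 stood above all the younger ones. The chain krt18, which in mammals pairs with keratin 8 in simple epithelia, went from a median of 6.58 (6.26 to 6.99) to 7.05 (6.5 to 7.85). Its log2 fold change was 0.52 ± 0.09 (SE, adjusted p = 2.19e-06), and the ranges overlapped, with 14 older pools above the highest younger one.

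The periderm keratin cyt1 had a log2 fold change of 0.17 ± 0.13 (SE, adjusted p = 0.297), with medians of 9.15 and 9.14 at 4 and 5 dpf. Its relatives cyt1l, krt17 and krt1-c5 had 0.09, 0.29 and 0.02, and did not pass. The median level at 4 and 5 dpf was 7.58 and 7.47 for cyt1l, and 2.07 and 2.02 for krt1-c5. In both genes the medians went the other way from the estimate. The basal keratin krtt1c19e had -0.37 ± 0.16 (SE, adjusted p = 0.0578), just outside the threshold. Its median level was 10.81 (9.87 to 12.16) at 4 dpf and 10.31 (9.18 to 11.81) at 5 dpf.

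Type II keratins split. The median of krt8 rose from 9.26 (8.47 to 9.78) to 9.48 (8.82 to 10.28), a log2 fold change of 0.39 ± 0.11 (SE, adjusted p = 0.00426). In krt5 the median went from 11.72 (10.83 to 12.63) to 11.20 (10.36 to 12.17), a log2 fold change of -0.32 ± 0.13 (SE, adjusted p = 0.0447). The ranges of both genes overlapped widely between ages.

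The fall of krt5 lay close to the threshold and was lost when any 1 of 19 libraries was left out, with an adjusted p between 0.0517 and 0.0855. The periderm keratin krt4 had a log2 fold change of -0.28 ± 0.12 (SE, adjusted p = 0.0549), with medians of 12.67 (11.99 to 13.44) and 12.42 (11.69 to 13.14). It passed when any 1 of 20 libraries was left out, and krtt1c19e did so for 20 libraries as well. These 3 genes, which took the largest shares of counts among the 32, were therefore at the edge of the call in either direction.

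Of the other keratin-named genes 6 of 8 were called higher, with a median log2 fold change of 1.01 over the 8. The level of krt97 was 7.70 (6.98 to 8.56) at 4 dpf and 8.99 (7.97 to 9.58) at 5 dpf, with 21 of 24 older pools above every younger one. Its log2 fold change was 1.23 ± 0.11 (SE, adjusted p = 1.95e-12).

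Its neighbour krt96 had the same log2 fold change of 1.23 ± 0.14 (SE, adjusted p = 4.81e-10), from a median of 2.19 (1.43 to 3.17) to 3.49 (2.40 to 4.13). On chromosome 11, krt93 went from 0.54 (-1.24 to 1.33) to 1.89 (0.12 to 3.34), a log2 fold change of 1.45 ± 0.19 (SE, adjusted p = 1.7e-08). Its level was low, between 6 and 276 counts a library. Next to it, krt94 went from 3.87 (3.39 to 4.51) to 4.71 (4.24 to 5.34), with 0.93 ± 0.10 (SE, adjusted p = 4.4e-11). All 24 older pools of krt94 and krt96 stood above the younger median, and 17 above the highest younger pool.

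On chromosome 19, krt92 went from 7.69 (6.34 to 8.59) to 8.80 (7.68 to 9.59), a log2 fold change of 1.08 ± 0.15 (SE, adjusted p = 6.53e-08). A smaller rise was called for krt91, at 0.34 ± 0.14 (SE, adjusted p = 0.0449). Neither krt222, a keratin-like gene with -0.11, nor krtcap2, with 0.21, passed.

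**Figure D2:**
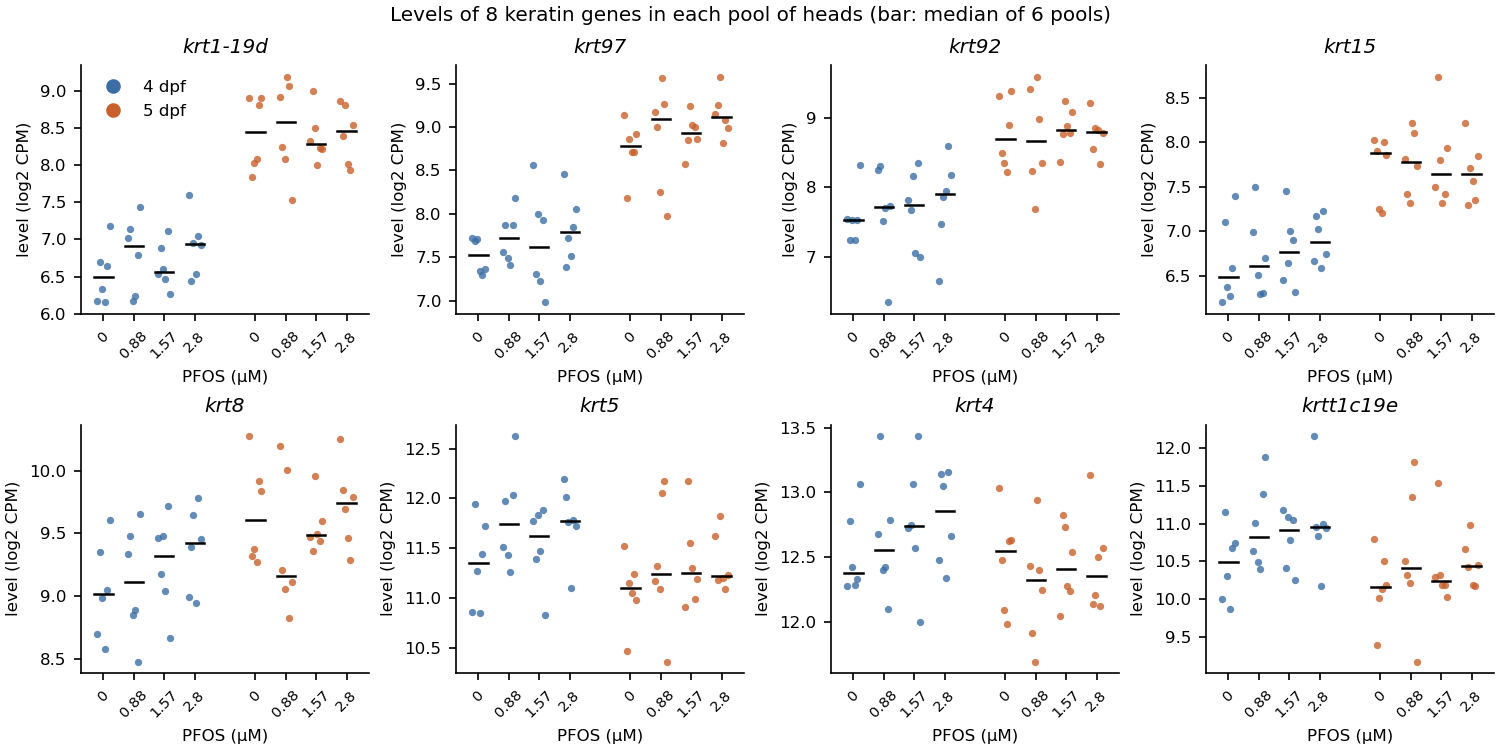
Level of 8 keratin genes in every pool (y axis, log2 CPM) by PFOS concentration (x axis, µM, 0 is DMSO), with 4 dpf in blue, 5 dpf in orange and a bar at the median of 6 pools. In krt1-19d the ages part at all 4 concentrations, and in krt97 at all but 0.88 µM, while in krt5, krt4 and krtt1c19e they overlap.

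Of the 13 desmosome genes 4 rose and none fell, where 22.8% of all genes rose and 20.5% fell, so the share that rose was not far from the background. Neither cadherin passed: dsc2l, a desmocollin, had a log2 fold change of 0.16 ± 0.12 (SE, adjusted p = 0.297) and dsg2.1, a desmoglein that the table lists as a processed transcript, had 0.00 ± 0.14 (SE, adjusted p = 0.996). Among plakins, evplb rose by 0.33 ± 0.13 (SE, adjusted p = 0.0384), from a median level of 8.68 (7.64 to 9.59) to 9.07 (8.33 to 9.87). Envoplakin, which evplb and evpla encode, and periplakin (ppl) tie keratin to the cornified envelope in mammals. The log2 fold changes of ppl, evpla and desmoplakin (dspa) were 0.13, -0.22 and 0.17, and none passed.

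Of the armadillo genes, the plakophilins pkp3a, pkp3b and pkp1b rose. In pkp3b the median went from 3.32 (2.89 to 3.85) to 3.78 (3.32 to 5.01), a log2 fold change of 0.65 ± 0.12 (SE, adjusted p = 1.23e-05). In pkp3a it went from 5.45 (5.00 to 6.29) to 5.94 (5.58 to 6.51), with 0.42 ± 0.10 (SE, adjusted p = 0.000534). In both genes all 24 older pools were above the younger median.

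A smaller rise was called for pkp1b, at 0.28 ± 0.09 (SE, adjusted p = 0.00607). The plakoglobin genes jupa and jupb had 0.11 and -0.11, pkp2 had -0.06 and pkp1a -0.13, and none of the 4 passed. The counts of pkp1a were between 1 and 26 a library, so its interval was wide, from -0.60 to 0.34.

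A group of 7 keratins rose at every concentration. In DMSO 10 of the 32 genes were called, all higher (31.2%, beside 14.2% of all genes called in either direction). At 0.88 µM there were 9 (28.1%, beside 12.8%), at 1.57 µM 9 (28.1%, beside 15.2%) and at 2.8 µM 7 (21.9%, beside 12.4%), again all higher. These 4 contrasts share no library. The genes krt1-19d, krt15, krt92, krt93, krt94, krt96 and krt97 were called higher in all 4, which is 7 of 32, while 5.51% of all genes were called the same way in all 4. All of them but krt15 were among the 10 genes with fewer than 25% whole counts. Reads may be divided between such genes and their relatives, so they may not be separate cases of a rise. At 0.88 µM the number of members called was 5 without replicate G at 5 dpf, and in DMSO it was 22 with sample quality weights. The share of all genes under these weights is not given here. Without the 3 libraries of low correlation the counts were 12, 7, 8 and 6, and krt92 did not pass at 2.8 µM. The shares of all genes without replicate G or without these 3 libraries are not given here, so these counts have no background beside them.

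The log2 fold change of krt1-19d was 1.92 under DMSO alone. Under 0.88, 1.57 and 2.8 µM PFOS it was 1.75, 1.74 and 1.5, each with an SE of 0.26. In krt97 it was 1.25, 1.22, 1.17 and 1.29, each with an SE of 0.23. Over 3 of the 4 concentrations, krt18 and pkp3b were called, and pkp3a in DMSO alone. In 22 of the 32 genes the sign was the same at all 4 concentrations, beside 55.3% of all genes. Whether the age effect itself differed was tested for 2.8 µM against DMSO, and no member passed that test, as given with the PFOS results.

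Genes that lie side by side did not all share the change. In the chromosome 19 group 3 of 7 keratins rose, namely the first (krt1-19d), the third (krt92) and the last (krt91). All 3 on chromosome 11 rose, krt97 and krt96 but not krt222 rose on chromosome 22, and on chromosome 23 krt5 fell while krt8 and krt18 rose. Side by side with opposite signs of the estimate stood krt1-19d (5324653 to 5332785) and krtt1c19e (5339364 to 5345933), both on the reverse strand of chromosome 19.

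The difference between these neighbours, krt1-19d minus krtt1c19e in log2 CPM of the same pool, was -4.00 at the median of 24 pools at 4 dpf, with a range of -4.65 to -3.53. At 5 dpf the median was -1.98 and the range -2.75 to -1.28. No pool of one age overlapped the other age. A difference within a pool does not depend on the scaling between libraries. It does depend on how reads are divided between genes of like sequence. Only 20% of the krt1-19d values under 10000 were whole, and krtt1c19e had no value under 10000. The part of divided reads in this difference was not tested. This pair was chosen after its values were seen, and so no test is given.

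**Figure D3:**
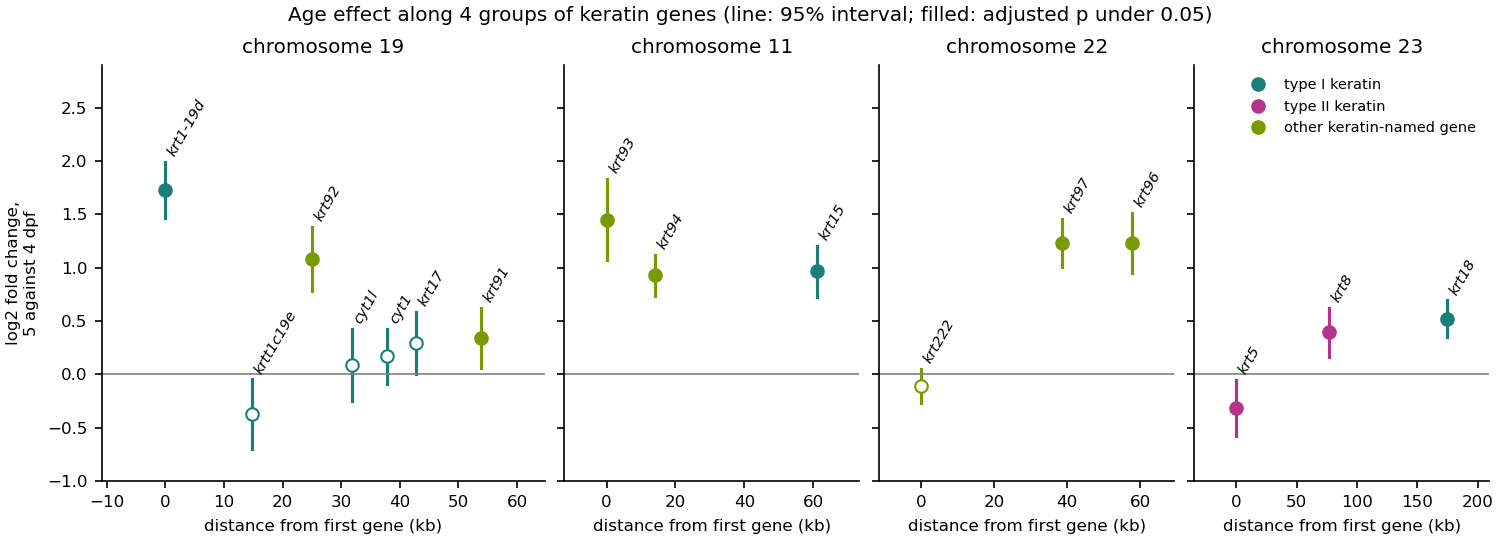
Log2 fold change between 5 and 4 dpf (y axis, line 95% interval, filled where the adjusted p was under 0.05) against the distance of each gene from the first of its group in kilobases, on 4 chromosomes. On chromosome 19, krt1-19d at 1.73 is followed by krtt1c19e at -0.37 and krt92 at 1.08.

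Other genes of the skin give the setting of these changes. Among 19 tested genes of periderm and the cornified envelope, 11 rose between 4 and 5 dpf and none fell by the same edgeR test (median log2 fold change 0.38). Of all genes tested, 22.8% rose and 20.5% fell. The 11 periderm and envelope genes included cldni, a claudin of tight junctions, at 1.24 ± 0.16 (SE, adjusted p = 1.68e-08). Among them were also the transglutaminases tgm1l3 at 1.23 ± 0.15 (SE, adjusted p = 3.5e-09) and tgm1l1 at 0.86 ± 0.10 (SE, adjusted p = 2.22e-09), members of the family that crosslinks envelope proteins in mammals. Also higher was scel, which encodes sciellin, an envelope precursor in mammals, at 0.46 ± 0.09 (SE, adjusted p = 2.11e-05). In contrast icn, icn2, eppk1 and ahnak had 0.15, -0.16, -0.10 and -0.15 and did not pass.

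Of 14 hemidesmosome and adherens junction genes, col17a1b alone was called, at 0.37 ± 0.10 (SE, adjusted p = 0.00277). Of 13 regulators of epidermis, tp63, ovol1a and klf4 rose and tfap2a and tfap2c fell, shares near the 22.8% higher and 20.5% lower of all genes. The transcription factor tp63, which marks basal keratinocytes, had 0.26 ± 0.08 (SE, adjusted p = 0.00955). The ectodermal factor tfap2c had -0.80 ± 0.07 (SE, adjusted p = 2.36e-12). Ionocytes, the ion-transporting cells of larval skin, had 6 of 8 markers higher and none lower, with slc12a10.2 at 1.14 ± 0.10 (SE, adjusted p = 2.01e-13). None of 4 mucous cell markers was called (median log2 fold change -0.05).

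Markers of some other tissues moved with age as well. Beside the counts below, 22.8% of all genes tested rose and 20.5% fell. Summed over 11 neuronal markers the level ran from 2453 to 5429 CPM in the 24 pools at 4 dpf and from 2272 to 4262 at 5 dpf, with 3 genes called lower (elavl3, stmn2b and gap43), none higher and none at 0 in all pools. All 9 hepatocyte markers rose, with sums of 61.1 to 523 CPM at 4 dpf and 585 to 2501 at 5 dpf, as did all 13 of exocrine pancreas and 6 of 7 of intestine. Of 8 cartilage markers 5 fell and 1 rose. Skeletal muscle had 4 of 9 markers higher and 2 lower, and lens 4 of 9 higher and none lower. Heart muscle had 3 of 6 higher and 1 lower, and endothelium 2 of 6 higher and 1 lower. With so few genes, the counts for endothelium and the neuronal genes called lower were not far from the shares of all genes. The part of such shifts in the keratin changes was not tested.

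No keratin or desmosome gene passed in any comparison of PFOS with DMSO. By edgeR's quasi-likelihood test, 0 of 32 were called at 0.88, 1.57 and 2.8 µM at 4 dpf, where 0% of all genes were called at each concentration. At 5 dpf there were again 0 of 32 at each concentration, beside 0% of all genes at 0.88 and 2.8 µM and 0.0799% (16 genes) at 1.57 µM. The trend per µM called 0 of 32 at each age, beside 0% of all genes. DESeq2 also called 0 members in all 8 of these tests. At an unadjusted p under 0.05 by edgeR there was 1 member at 2.8 µM and 1 in the trend at 4 dpf (both jupb). Beside them stood 6% and 6.1% of all genes. At 0.88 µM and 5 dpf there was 1 (krtcap2), beside 5.18% of all genes. The other 5 tests had none, beside 1.87 to 5.04% of all genes. The counts of members called stayed at 0 without the 3 libraries of low correlation. With sample quality weights, jupb passed as lower at 2.8 µM and 4 dpf (adjusted p = 0.0446), and 5 members passed in the trend at 4 dpf. The share of all genes under these weights is not given here.

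At 4 dpf most of the 32 genes lay slightly above DMSO. At 2.8 µM 25 of 32 log2 fold changes were positive with a median of 0.24, while for all genes 53.7% were positive with a median of 0.03. At 0.88 µM it was 26 of 32 (median 0.14), and at 1.57 µM 28 of 32 (median 0.20), beside 51% and 52.8% of all genes. The 3 comparisons share their DMSO pools, so these counts are not separate evidence. Many of the 32 genes also vary together between pools of one group, as shown further on.

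By role at 2.8 µM and 4 dpf, all 8 type I keratins were positive (median 0.35), as were the 3 type II keratins (0.31), 6 of 8 other keratin-named genes (0.29) and both cadherins (0.24). The plakins had a median of -0.01, with 1 of 4 positive, and the armadillo genes 0.22 with 5 of 7. The highest value was that of krtt1c19e, whose level in the 6 pools was 9.87 at the lowest, 10.49 at the median and 11.15 at the highest in DMSO and 10.17, 10.95 and 12.16 at 2.8 µM. The log2 fold change was 0.61 ± 0.33 (SE, adjusted p = 0.748), and the groups overlapped. The level of 12.16 was that of replicate A, a library of low correlation. With 1 library left out the log2 fold change of krtt1c19e ran from 0.30 to 0.79, and under the alternatives from 0.26 to 0.64.

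The median of krt94 was 3.61 (3.47 to 4.14) in DMSO and 4.02 (3.83 to 4.33) at 2.8 µM, a log2 fold change of 0.37 ± 0.19 (SE, adjusted p = 0.748). The smallest p belonged to jupb, one of the plakoglobin genes, and pointed the other way. Its level was 2.80 at the lowest, 3.35 at the median and 3.54 at the highest in DMSO and 2.41, 2.71 and 3.26 at 2.8 µM, and the ranges overlapped. The log2 fold change was -0.46 ± 0.16 (SE, unadjusted p = 0.00548, adjusted p = 0.748 by edgeR). It was -0.28 ± 0.16 (SE) at 0.88 µM and -0.27 ± 0.16 (SE) at 1.57 µM, neither of them called.

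Neuronal markers lay lower in the same comparison. Of 11 such genes 8 had a negative log2 fold change at 2.8 µM and 4 dpf, with a median of -0.22, and their summed level was 2555 to 4751 CPM in DMSO (median 4300) and 2531 to 5429 CPM at 2.8 µM (median 3437). Of 19 periderm genes 17 were positive (median 0.23), as were all 9 skeletal muscle, all 8 cartilage and all 6 heart muscle markers. For lens it was 8 of 9 and for endothelium 5 of 6. Fewer were positive among hepatocyte (5 of 9), exocrine pancreas (4 of 13) and intestine markers (3 of 7). The other skin lists differed. Positive were 11 of 14 hemidesmosome and adherens junction genes (median 0.17) and 8 of 13 epidermal regulators (0.16). Only 2 of 4 mucous cell markers (-0.13) and 1 of 8 ionocyte markers (-0.11) were positive. No gene of the table passed in this comparison. At 5 dpf the neuronal markers went the other way at 2.8 µM, with 9 of 11 positive (median 0.17). The median of their summed level was 2686 CPM in DMSO and 3679 CPM at 2.8 µM. Of the 19 periderm genes 9 were positive at 5 dpf (median -0.07), and no gene passed there either. The part of these differences in the keratin values was not tested.

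At 5 dpf the 32 genes did not lean one way at 2.8 µM, with 13 positive, 19 negative and a median of -0.04. At 0.88 µM 13 were positive (median -0.06) and at 1.57 µM 16 (median 0.01). Of all genes 49.6%, 50.3% and 49.3% were positive at 0.88, 1.57 and 2.8 µM. The 3 members with the smallest p at 2.8 µM were krt97, krt1-c5 and evpla. The median of krt97 was 8.79 (8.18 to 9.13) in DMSO and 9.11 (8.81 to 9.58) at 2.8 µM, a log2 fold change of 0.38 ± 0.22 (SE, adjusted p = 0.992).

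The type I keratin krt1-c5 had -0.40 ± 0.27 (SE, adjusted p = 0.992), from a median of 2.31 (1.56 to 2.85) to 1.73 (1.37 to 2.57). In evpla it was -0.50 ± 0.35 (SE, adjusted p = 0.992), from 5.2 (4.48 to 5.97) to 4.58 (3.67 to 5.63), and in all 3 genes the groups overlapped. All 4 plakins were below DMSO at each concentration at 5 dpf, with medians of -0.38, -0.38 and -0.30 at 0.88, 1.57 and 2.8 µM. None was called, and the comparisons share the same DMSO pools.

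When the effect of 2.8 µM at 5 dpf was set against that at 4 dpf, 0 of 32 members were called by edgeR and 0 by DESeq2, beside 0% of all genes. At an unadjusted p under 0.05 by edgeR there was 1 member, beside 3.82% of all genes. That member was jupb, at 0.53 ± 0.22 (SE, adjusted p = 0.948). The median of this difference over the 32 genes was -0.28, against -0.06 for all genes. Of the 32 genes 27 were negative and 5 positive, where 43.8% of all genes were positive. The medians of the 32 genes were 0.24 at 4 dpf and -0.04 at 5 dpf. Those of the 4 plakins were -0.01 at 4 dpf and -0.30 at 5 dpf. With sample quality weights jupb passed this test, and the share of all genes under these weights is not given here.

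How large an effect these data leave room for can be read from the intervals. At 2.8 µM, 28 of 32 genes had a 95% interval inside a doubling or halving at each age. The median SE of the 32 genes was 0.25 at both ages, and the most extreme interval ends were -1.03 and 1.30 at 4 dpf and -1.28 and 1.07 at 5 dpf. A p above the threshold does not show that levels were the same.

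**Figure D4:**
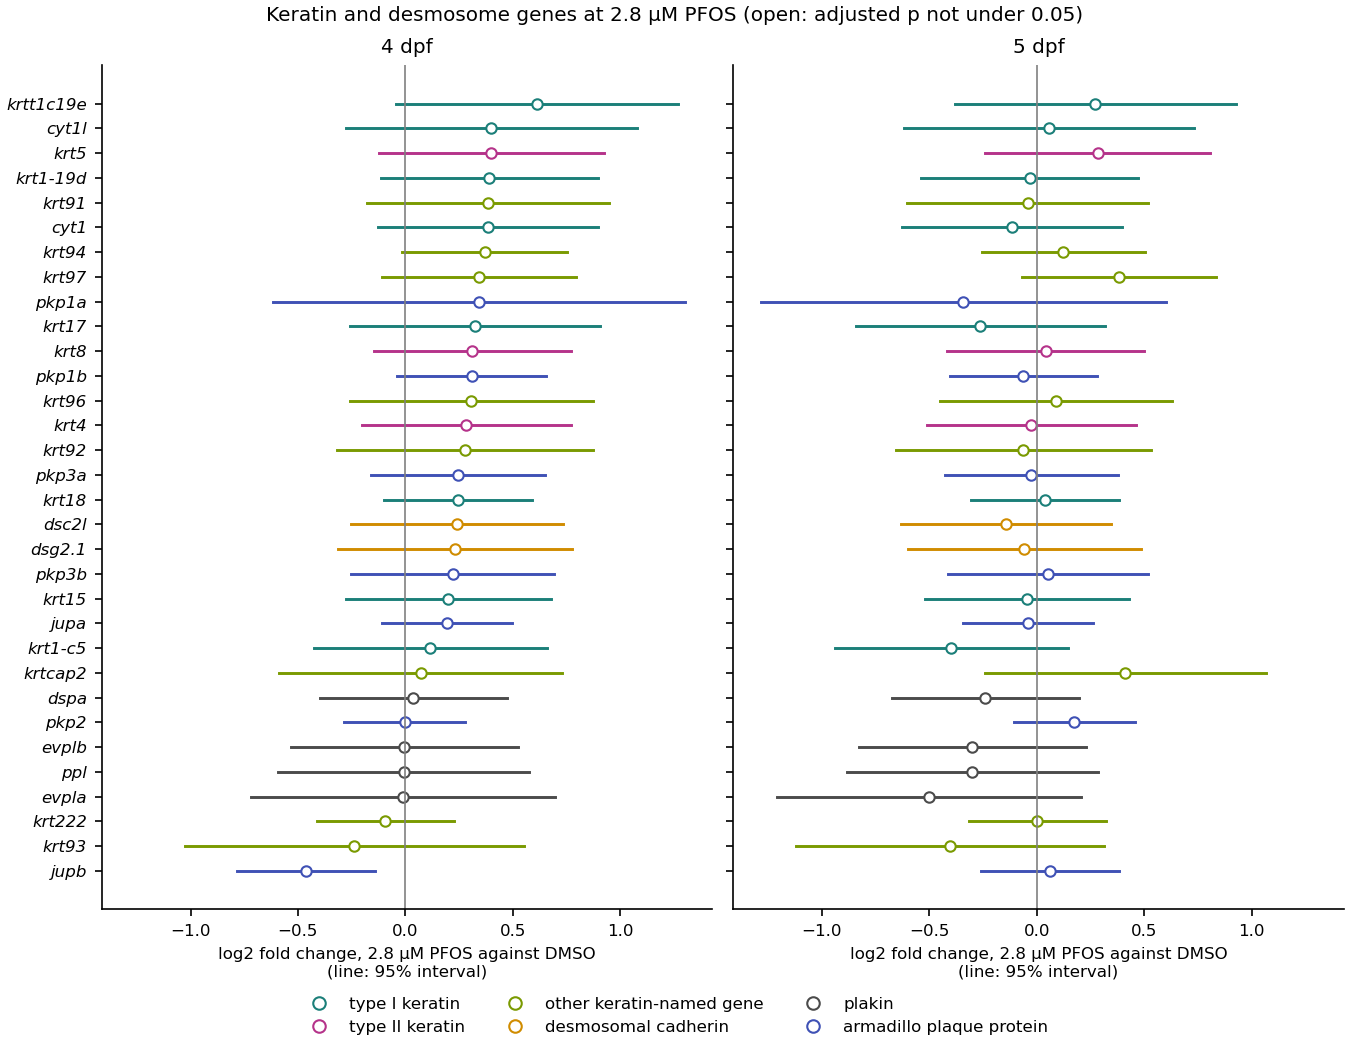
Log2 fold change of each of the 32 genes at 2.8 µM PFOS against DMSO at 4 dpf (left) and 5 dpf (right), with 95% intervals and colour by role. No point passed an adjusted p of 0.05; at 4 dpf 25 of 32 lie above 0, and at 5 dpf 13.

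Pools of one group differed among themselves, and the keratin and desmosome genes differed together. Each level was set against the mean of its own group, and these deviations were correlated over all 48 pools. In all 76 relations were computed, with p from 100000 permutations within groups and Benjamini-Hochberg adjustment. The points share the scaling of their library, so a shift in scaling moves all genes of a pool at once.

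With the deviation of krt4, 22 of the 31 other members correlated positively, 2 negatively and 7 not at an adjusted p under 0.05. The keratin krt91 on chromosome 19 had Pearson's r = 0.914 and Spearman's rho = 0.9, each with permutation p = 1e-05, the smallest these permutations can give, and r = 0.897 without the 2 farthest pools. The next was krt17, with r = 0.907 and rho = 0.883 (both permutation p = 1e-05) and r = 0.894 without the 2 farthest pools. Among desmosome genes, jupa had r = 0.805 and rho = 0.802, and pkp3a had r = 0.76 and rho = 0.756, all at permutation p = 1e-05.

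The exceptions were the plakoglobin gene jupb, with r = -0.737 and rho = -0.724 (both permutation p = 1e-05, adjusted p = 2.81e-05 and 2.62e-05), and krt222, with r = -0.366 and rho = -0.439 (permutation p = 0.0132 and 0.00355, adjusted p = 0.0188 and 0.005). Some of the keratins that rose with age did not pass against krt4 within groups. For krt97 r was 0.306 and rho 0.285 (permutation p = 0.0733 and 0.078), and for krt96 r was 0.128 and rho 0.0878 (permutation p = 0.419 and 0.587). Likewise krt93 had r = 0.104 and rho = 0.141 (permutation p = 0.518 and 0.384).

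The same deviations ran against the neuronal markers. The mean level of the 11 neuronal genes had r = -0.833 and rho = -0.825 with krt4 (both permutation p = 1e-05), r = -0.799 within 4 dpf, r = -0.883 within 5 dpf and r = -0.819 without the 2 farthest pools. Of the 31 other members 21 correlated negatively with it, 2 positively and 8 not at an adjusted p under 0.05, and the 23 that passed had the same sign at both ages.

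Closest were pkp3a, with r = -0.897 and rho = -0.875, and krt15, with r = -0.892 and rho = -0.884, all at permutation p = 1e-05 and adjusted p = 2.81e-05 for r and 2.62e-05 for rho. Without the 2 farthest pools r was -0.884 and -0.877. The cadherin dsg2.1 had r = -0.863 and rho = -0.878 (both permutation p = 1e-05), with r = -0.888 at 4 dpf and -0.823 at 5 dpf. A positive relation was found for jupb, with r = 0.662 and rho = 0.636 (permutation p = 1e-05 and 2e-05), and for krt222, with r = 0.568 and rho = 0.618 (permutation p = 2e-05 and 4e-05).

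The relation did not pass for krt97, with r = 0.038 and rho = 0.0494 (permutation p = 0.818 and 0.768), nor for krt96, krt93, krt18 and pkp2. Leaving out the 2 farthest pools changed r by at most 0.055 among the relations that passed. Most of the other marker lists varied with krt4. The r was 0.702 for epidermal regulators (rho 0.715), 0.776 for endothelium (rho 0.75) and 0.611 for skeletal muscle (rho 0.63), with permutation p of 1e-05, 1e-05 and 4e-05 for r. Also at an adjusted p under 0.05 were hemidesmosome and adherens junction genes (r = 0.699), periderm (0.62), cartilage (0.619), heart muscle (0.581), ionocytes (0.483) and lens (0.344). The relation did not pass for mucous cells (r = -0.126, rho = -0.13, permutation p = 0.451 and 0.407), hepatocytes (r = 0.165, rho = 0.217, permutation p = 0.312 and 0.175), exocrine pancreas (r = 0.112, rho = 0.093, permutation p = 0.487 and 0.561) or intestine (r = 0.0975, rho = 0.0832, permutation p = 0.541 and 0.604). How much of each head was skin, neural tissue or other tissue was not measured, and its part in these relations was not tested.

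**Figure D5:**
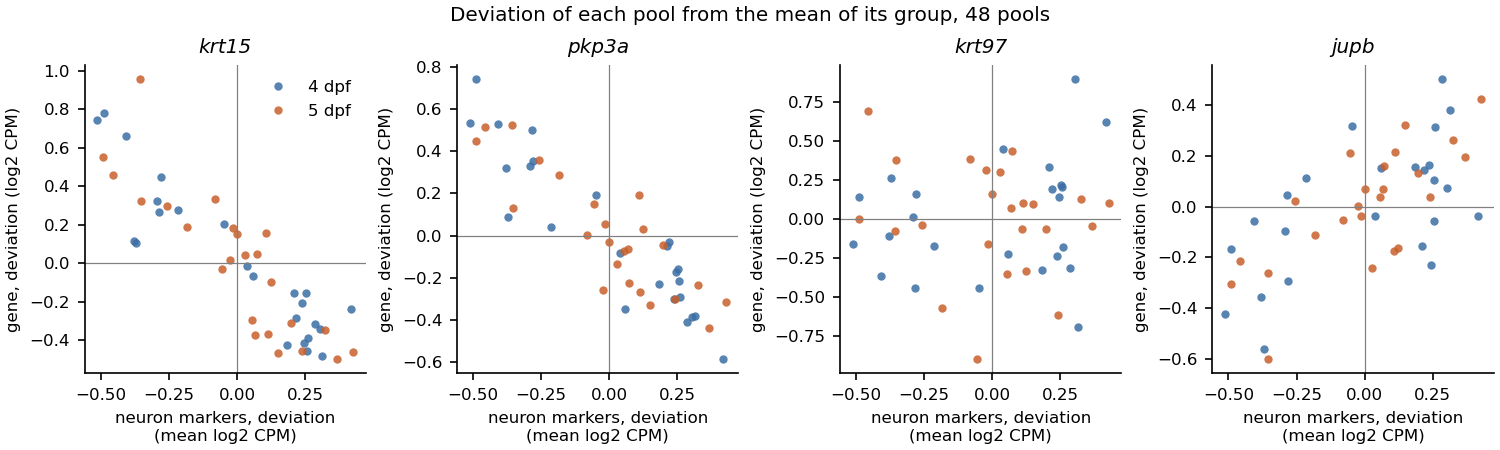
Deviation of krt15, pkp3a, krt97 and jupb from the mean of the group (y axis, log2 CPM) against that of the mean of 11 neuronal markers (x axis, log2 CPM) in 48 pools, blue for 4 dpf and orange for 5 dpf. The points fall for krt15 (r = -0.892) and pkp3a (r = -0.897), rise for jupb (r = 0.662) and scatter on both sides of 0 for krt97 (r = 0.038).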

How the data were processed

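PolyA RNA of 48 pools of zebrafish heads was sequenced as single reads. The submitters' processing notes name STAR 2.5.3a, the Partek software at 8.0.19.0428 and GRCz11 as genome build. The annotation, and the sequencing pool to which a library belonged, are not stated in the material used. Libraries were randomised, per the labels' protocols. The authors deposited expected counts per gene, not normalized (25377 genes), and log2 values after quantile normalization, per the file headers (20466 genes). No column was left without a sample.

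Expected counts were rounded to whole numbers, filtered with filterByExpr by group (20021 genes kept) and scaled by TMM. In edgeR 4.0.16 (R 4.3.3), 1 model of 8 groups without covariates was fitted to 48 libraries and contrasts were tested with the quasi-likelihood F test. P-values were adjusted by Benjamini-Hochberg across the tested genes, with a threshold of 0.05. Standard errors were derived from the fold change and F. Tests were 2-sided, and scripts were tested on simulated data. Intervals cover the spread between pools; reads carry no molecular identifiers.

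The members, lists and alternatives were chosen with earlier results of these data known. Chosen to be named with full values were the 2 members with the highest mean level in each role and up to 8 higher and 8 lower called for age. The 3 with the smallest p at 2.8 µM at each age were chosen too. Of these, ppl and jupa are given by their estimate alone, and krt91, dsc2l and dsg2.1 without levels. Other members are given at least by their estimate. Alternatives were RLE scaling, 2 filters, DESeq2 1.42.0, the groups compared alone, the replicate letter as a block, limma 3.58.1 on the quantile normalized values, sample quality weights, and leaving out libraries. Gene names of RefSeq were used for older symbols. Reads and sequences were not analysed here.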

Additional observations from a re-analysis of the deposited data

Results flagged for a closer look

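In 4 of 112 groups of 6 pools, over the 14 named members, 1 pool lay far from the rest, with a gap to its nearest neighbour above 0.625 of the range of the group. Chance flags about 1 in 20 groups. In replicate D of 1.57 µM at 5 dpf, a library of low correlation, evpla was low at 3.36 log2 CPM (next pool 4.67) and krtt1c19e was high at 11.54 (next pool 10.32). In replicate I of DMSO at 4 dpf, krt92 was high at 8.33 (next pool 7.55) and krt94 at 4.14 (next pool 3.66). Both of these genes rose with age in DMSO with this pool included. Causes were not tested.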

How the results depend on the processing

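Averaged over concentrations, 13 to 17 members were called under the alternatives and 12 to 16 with 1 library left out, beside 15 in the values reported. The shares of all genes called in these refits are not given here. The log2 fold change of krt1-19d stayed between 1.63 and 1.79. For the same 14 members, 131 estimates under alternatives kept direction and side of the threshold, 10 passed that had not, 1 was lost and none turned. Leaving out 1 library gave 541, 40 and 19. Among the 14 named members the change of call concerned krt5, krt4 and krtt1c19e, and jupb once. Under RLE scaling 0 of 112 group levels moved by 1 SD, and all 0 counts for PFOS held under each alternative but sample quality weights. These weights called 1 member at 2.8 µM and 4 dpf (jupb lower, adjusted p = 0.0446), 5 in the trend at 4 dpf (cyt1, krt8, krt91 and pkp3a higher, jupb lower), 1 in the difference between ages (jupb) and 22 for age in DMSO (10 in the values reported). The share of all genes called under these weights is not given here, so these counts have no background beside them. For age at 0.88 µM, fitting only the groups compared called 5 in place of 9, and leaving out 1 library gave 5 to 9, the 5 without replicate G of 0.88 µM at 5 dpf. The cause was not tested.

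With the replicate letter as a block, 14 members were called for age, and krt5 was lost (log2 fold change -0.27, adjusted p = 0.116). The share of all genes called with the block is not given here. Groups shared 3 to 5 letters, and libraries with the same letter had correlations of -0.418 to 0.532. Whether a letter marks libraries that belong together cannot be told from these values. At most 2 libraries of a comparison correlated best with their own letter. The block changed no other named call.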
